A study of Mus musculus with 5 samples.

Results

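Kidney endothelial cells were chosen by the UMI counts of 8 genes of the vessel wall in Drop-seq libraries of mouse kidney, namely Ly6c1, Plvap, Emcn, Pecam1, Tm4sf1, Egfl7, Kdr and Fabp4. A barcode with at least 200 detected genes (a cell, below) was taken as endothelial when it held at least 3 UMIs of these genes, at least 2 of the genes and at least 0.6% of its UMIs in them. The rule found 136 of 12121 cells, or 1.12% (0.942 to 1.33). The libraries came from wild-type mice of a strain labelled C56BL/6N: 1 library each of microdissected inner medulla, outer medulla and cortex, and 2 of whole kidney. The kidneys were perfused with cold buffer to clear the blood, digested with a protease active in the cold and fixed in methanol. In Drop-seq each captured mRNA carries a unique molecular identifier (UMI), so the values are counts of molecules. The number of animals behind each library is not stated in the labels. Regions have a single library each, so they were compared without a test, and the 2 whole kidney libraries give the only view of the spread between libraries. Ranges after shares are exact 95% Clopper-Pearson intervals, those after summed levels exact Poisson intervals and those after folds exact conditional intervals, and all cover counting error only.

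Endothelial cells line every blood vessel, and in the kidney they differ sharply by vascular bed. Glomerular capillaries are fenestrated without diaphragms and are kept by VEGF from podocytes. Peritubular capillaries and ascending vasa recta have fenestrae closed by diaphragms made of the Plvap protein, whereas arteries and descending vasa recta have a continuous wall. The vasa recta run down into and up out of the salty, poorly oxygenated medulla and exchange water and urea with each other, so that the medullary gradient is not washed away.

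The inner medulla library held 33 endothelial cells among 898, a share of 3.67% (2.54 to 5.12). Outer medulla held 25 of 2428 (1.03%, 0.667 to 1.52), cortex 34 of 3072 (1.11%, 0.768 to 1.54), whole kidney 1 held 18 of 2418 (0.744%, 0.442 to 1.17) and whole kidney 2 held 26 of 3305 (0.787%, 0.515 to 1.15). The inner medulla interval lay above the other 4, which overlapped each other. Whether dissection, digestion or capture moved these shares was not tested. The inner medulla share also hung on the gene minimum. It was 2.33% with at least 300 genes per cell and 6.25% with at least 100, a limit added after the data were seen.

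**Figure D1:**
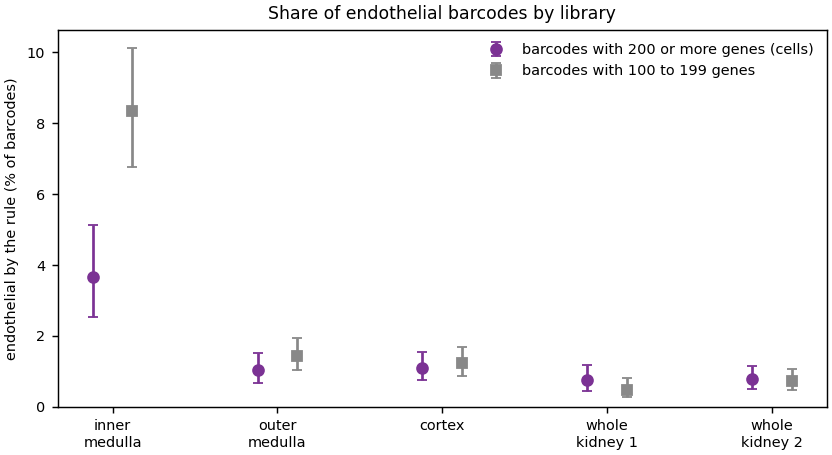
Percentage of barcodes that met the endothelial rule in each library, for barcodes with 200 or more detected genes (circles, the cells of the text) and for smaller barcodes with at least 100 but fewer than 200 genes (squares); bars are exact 95% binomial intervals. Inner medulla stands highest in both, at 3.67% and 8.34%.

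These cells were shallow. They held a median of 354.5 UMIs and 274.5 genes, with 240 to 2480 UMIs per cell and 59949 UMIs in all, of which 13952 were from inner medulla, 9410 from outer medulla, 14598 from cortex, 7905 from whole kidney 1 and 14084 from whole kidney 2. Median depth of the endothelial cells was 316 to 402.5 UMIs by library, against 444 to 518 UMIs for all other cells. Any 2 libraries shared 0 or 1 cell barcodes. Of the 136 cells, 17 held more than 2 UMIs of any of 9 marker lists of other cell types. They numbered 3 in inner medulla, 6 in outer medulla, 3 in cortex, 1 in whole kidney 1 and 4 in whole kidney 2. Proximal tubule, thin limb and erythroid markers were not among the 9 lists. More than 2 UMIs of proximal tubule markers were held by 1, 17, 15, 13 and 19 cells in the same order. No doublet caller was run. All 7 intercalated cell markers listed and all 6 fibroblast markers listed were at 0 UMIs in the endothelial cells. Proximal tubule markers made up 0.817%, 2.32%, 2.01%, 3.25% and 2.68% of endothelial UMIs in inner medulla, outer medulla, cortex, whole kidney 1 and whole kidney 2, against 1.53%, 11.9%, 10.9%, 10.8% and 11.8% in all other cells. In barcodes with fewer than 100 genes, which can hold free RNA as well as small cells or fragments, these markers held 1.78% of UMIs in inner medulla and 8.75% to 9.68% in the other libraries; the endothelial cells thus carried a smaller share of them than those barcodes in each library.

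The 8 genes of the rule chose the cells, so their levels are a description. They made up 2.53% of endothelial UMIs in inner medulla, 1.57% in outer medulla, 1.90% in cortex, 1.40% in whole kidney 1 and 1.53% in whole kidney 2, against 0.00393% to 0.0203% in all other cells. A cell held a median of 7 UMIs of the 8 genes. Evidence per cell was often thin, with 16 cells at exactly 3 UMIs, 29 with exactly 2 of the genes and 60 with 4 or more. The member nearest the limit held 0.619% of its UMIs in the 8 genes, and the nearest cell outside it held 0.515%.

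Ly6c1, a surface protein of microvascular endothelium anchored by a lipid tail, had 120 UMIs in inner medulla, 38 in outer medulla, 61 in cortex, 39 in whole kidney 1 and 73 in whole kidney 2. Plvap, the fenestral diaphragm protein gene, had 77, 6, 33, 8 and 14 UMIs in the same order. Emcn, a sialomucin of capillaries and veins, had 48, 23, 39, 9 and 21 UMIs, and Pecam1, the adhesion molecule CD31, had 30, 9, 20, 6 and 16. Among these cells Plvap and Ly6c1 stood highest in inner medulla, where Plvap was seen in 22 of 33 cells, against 6 of 25 in outer medulla and 13 of 34 in cortex. In cells rich in proximal tubule markers, Plvap was seen in 2 of 65, 1 of 1451 and 2 of 1855 cells of these libraries. Their median depths were 461, 572 and 581 UMIs, against 328, 316 and 373 UMIs in the endothelial cells. Plvap helped choose the endothelial cells, so this contrast was partly set by the rule and is a description.

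Tm4sf1, a membrane protein of the tetraspanin-like kind, ran the other way, with 25 UMIs in inner medulla, 36 in outer medulla, 72 in cortex, 24 in whole kidney 1 and 63 in whole kidney 2. Kdr, the main VEGF receptor gene, had 4, 4, 14, 6 and 6 UMIs, and Egfl7, a secreted vessel factor gene, had 10, 9, 24, 7 and 11. Fabp4, which carries fatty acids in capillary endothelium, had 39, 23, 15, 12 and 12 UMIs. As levels (UMIs of the gene per 1000000 UMIs of the summed endothelial cells, CPM), Fabp4 stood at 2795 CPM in inner medulla and 2444 CPM in outer medulla, against 1028 CPM in cortex. Smaller barcodes, with at least 100 but fewer than 200 genes, that met the rest of the rule were counted too. The order of the regions was not kept there for Fabp4, Ly6c1, Tm4sf1, Kdr and Egfl7. Fabp4 stood there at 6773 CPM in inner medulla, 5686 CPM in outer medulla and 8213 CPM in cortex, and Ly6c1 at 9241, 7073 and 9691 CPM. Tm4sf1 stood at 2405, 5131 and 4435 CPM, Kdr at 127, 1109 and 493 CPM and Egfl7 at 1203, 1664 and 1314 CPM. The order was kept for Plvap, Emcn and Pecam1, with Plvap at 8988, 1941 and 5256 CPM. Genes cannot be ranked against each other from these values, which are not set per transcript length.

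**Figure D2:**
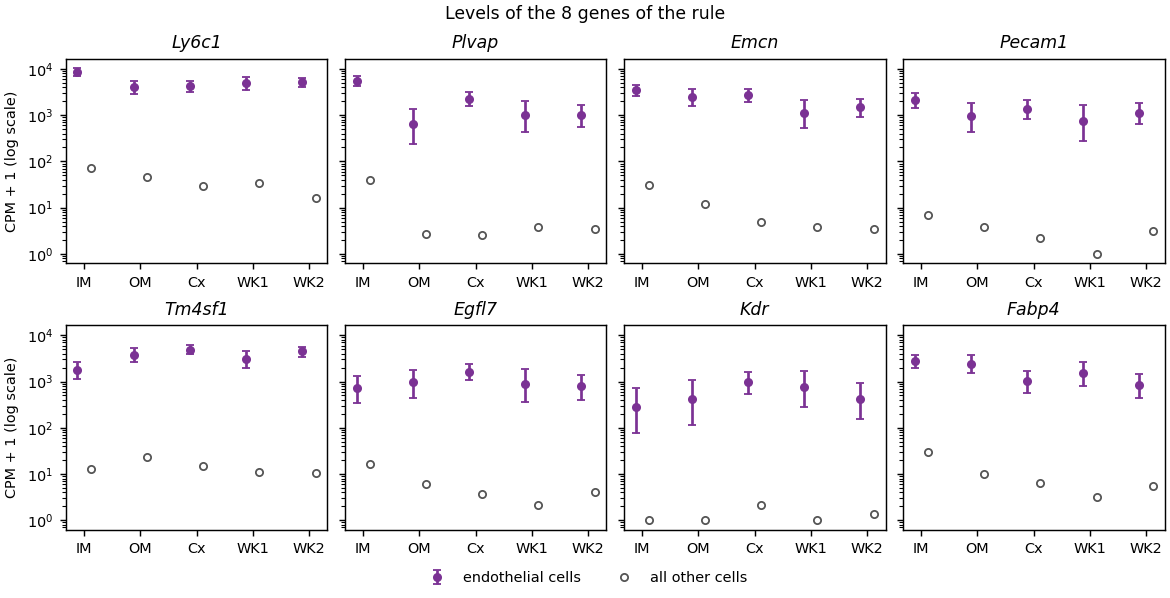
Level of each gene of the rule in endothelial cells (filled, with exact 95% Poisson intervals) and in all other cells (open), as CPM plus 1 on a log axis, in inner medulla (IM), outer medulla (OM), cortex (Cx) and whole kidney 1 and 2 (WK1, WK2). Plvap and Ly6c1 are highest in inner medulla, at 5519 and 8601 CPM, and Tm4sf1 is lowest there, at 1792 CPM.

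Promoters of 3 endothelial genes are shown since they stand for different patterns in these cells. Emcn was found in all libraries, and Kdr had its highest count in cortex, at 14 UMIs. Ehd3, a gene of glomerular capillaries, had 0 UMIs in inner medulla. In the smaller barcodes Kdr had 8 UMIs in outer medulla and 3 in cortex, and Ehd3 had 3 in inner medulla. The sequences are RefSeq's for build GRCm38.p6, from 250 bases before to 50 bases after the annotated start, 5′ to 3′ on the gene's strand. Capitals mark AGGAAG or its reverse complement CTTCCT, a form of the GGAA-centred motif of ETS transcription factors, a family with many members in endothelium. Emcn lies on the plus strand at chr3:137340828-137341127, Kdr on the minus strand at chr5:75978406-75978705 and Ehd3 on the plus strand at chr17:73804591-73804890.
Emcn: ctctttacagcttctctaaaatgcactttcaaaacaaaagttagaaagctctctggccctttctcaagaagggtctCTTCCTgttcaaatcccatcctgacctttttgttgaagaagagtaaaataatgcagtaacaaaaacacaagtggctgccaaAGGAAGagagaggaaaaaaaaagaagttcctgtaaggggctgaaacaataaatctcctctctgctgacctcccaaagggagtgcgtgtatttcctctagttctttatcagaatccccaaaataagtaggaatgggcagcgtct
Kdr: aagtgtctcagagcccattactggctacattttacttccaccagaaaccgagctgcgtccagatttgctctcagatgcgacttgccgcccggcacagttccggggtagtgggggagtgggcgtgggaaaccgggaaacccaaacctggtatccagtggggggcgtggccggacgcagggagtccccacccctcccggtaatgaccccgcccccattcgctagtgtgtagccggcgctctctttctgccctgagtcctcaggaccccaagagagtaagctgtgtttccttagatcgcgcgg
Ehd3: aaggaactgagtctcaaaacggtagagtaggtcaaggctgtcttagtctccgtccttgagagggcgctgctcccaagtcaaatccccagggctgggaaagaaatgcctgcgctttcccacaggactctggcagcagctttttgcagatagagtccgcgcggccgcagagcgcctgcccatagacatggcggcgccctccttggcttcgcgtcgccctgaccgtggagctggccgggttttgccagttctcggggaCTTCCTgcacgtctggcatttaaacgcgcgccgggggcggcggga
The motif, read on both strands, was found 2 times in the Emcn window, 0 times in that of Kdr and 1 time in that of Ehd3. It is a common string, present in 11613 of all 32851 promoter windows of this length (35.4%). Of 45 further endothelial identity genes, 26 had a promoter in the table, and 14 of their 32 windows (43.8%) held the motif. A match is a string of letters and not a binding site.

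Beyond the rule, the endothelial cells were set against all other cells of the same library. The contrast is that of the rule, so no test was made and the sizes are a description. Of 309 genes outside the rule with at least 30 UMIs over the endothelial cells and a UMI in 4 or more libraries, 72 (23.3%) were higher by at least 1 on the log2 scale in each of the 5 libraries. All log2 ratios here are of CPM plus 10 and are medians over libraries unless a library is named. The median over the 309 genes was 0.40, and over 10449 genes with at least 30 UMIs in all cells it was -0.82. With TMM scaling, every log2 ratio would be lower by 1.03 in inner medulla, 1.68 in outer medulla, 1.47 in cortex, 1.80 in whole kidney 1 and 1.51 in whole kidney 2, and 45 genes would pass.

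The leading genes outside the rule were Plpp1 (6.77), a lipid phosphate phosphatase gene, and Klf2 (6.77), the transcription factor gene switched on by laminar flow. Plpp1 had 29 UMIs in inner medulla, 26 in outer medulla, 44 in cortex, 13 in whole kidney 1 and 19 in whole kidney 2. Its level was 2079, 2763, 3014, 1645 and 1349 CPM in endothelial cells of these libraries, against 35.5, 5.17, 6.68, 7.67 and 2.44 CPM in all other cells. Klf2 had 8, 22, 17, 15 and 20 UMIs, and endothelial cells and other cells did not come close in any library, with 573 CPM as the lowest endothelial value and 7.46 CPM as the highest other value. Klf4, its partner in the flow response, stood at 6.07 but was uneven, at 1, 10, 3, 10 and 11 UMIs.

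Secreted and surface proteins that keep blood fluid were among the leaders. Thbd, the thrombin-binding anticoagulant thrombomodulin, stood at 5.76 with 31 UMIs in all, and Plat, the tissue plasminogen activator, at 5.73 with 16, 14, 22, 8 and 26 UMIs from inner medulla to whole kidney 2. Srgn, the core protein of a secretory granule proteoglycan, stood at 6.33 and was at least 4.93 in every library. Receptors followed: Ptprb, the phosphatase that restrains the angiopoietin receptor (5.93), Eng, a TGF-beta co-receptor (5.59), Calcrl and Ramp2, which together form the adrenomedullin receptor (5.52 and 5.24), Clec14a (5.95), Cd200 (5.71) and the adhesion receptors Adgrf5 and Adgrl4 (5.60 and 5.35).

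Nuclear and cytoplasmic leaders were the transcriptional regulators Meis2 (5.65), Lmo2 (5.47) and Id1 (5.28), a target of BMP signalling. Slc9a3r2, a scaffold protein gene, stood at 6.14, the endocytic gene Ehd4 at 6.29, the intermediate filament gene Vim at 5.99 and the interferon-induced genes Ifitm3 and Rsad2 at 6.09 and 5.86. Secreted leaders of the matrix kind were Igfbp3 (6.04), Fbln5 (5.44) and Sparc (5.25). The remaining leaders were Fxyd5, Gng11, Gimap6, Slfn5 and Plpp3, at 5.28 to 5.48. Ehd4 was the most uneven by place, at 2.08 in inner medulla and 6.09 to 6.76 elsewhere. The other cells held it at 213 CPM in inner medulla and at 2.75 to 16.6 CPM in the other libraries.

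**Figure D3:**
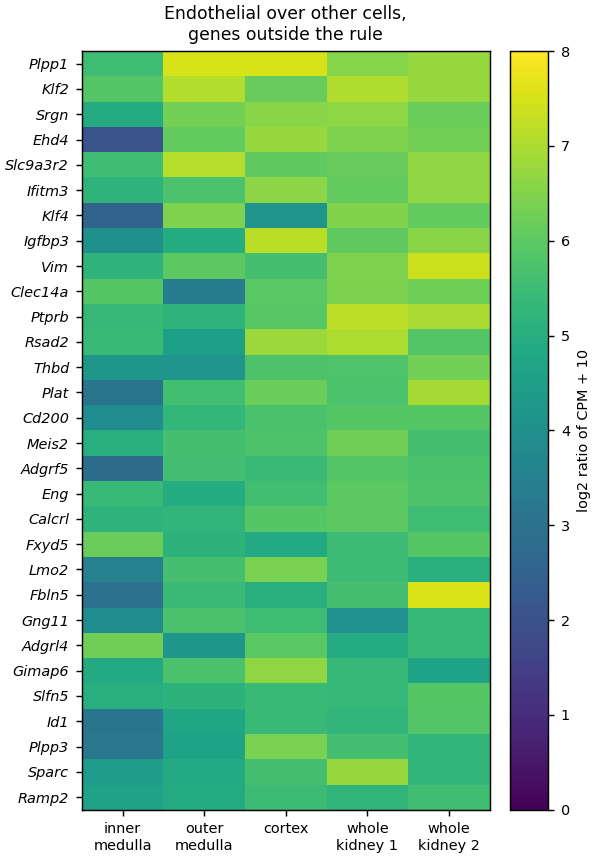
Log2 ratio of CPM plus 10 in endothelial cells over all other cells, for the 30 genes outside the rule with the largest median ratio (rows), in each library (columns). Plpp1 and Klf2 lead at a median of 6.77, and Ehd4, Klf4 and Adgrf5 are darkest, with the lowest ratios of the panel, in inner medulla (2.08, 2.55 and 2.81).

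Some genes had most of their UMIs, over all cells with at least 200 genes, in the endothelial cells. Stmn2, a regulator of microtubules best known from neurons, had 34 of its 38 UMIs in endothelial cells (89.5%), with 0 in inner medulla, 7 in outer medulla, 7 in cortex, 5 in whole kidney 1 and 15 in whole kidney 2. Next by this share were Cd93 (76.5%), Cd34 (75.6%), Esm1 (75.6%), Myct1 (71.4%), Clec14a (70.3%), Fbln5 (69.7%), Ldb2 (69.4%), Thbd (68.9%) and Eng (68.4%). Among the genes of the rule itself the share was 89.5% for Kdr, 82.7% for Pecam1, 78.0% for Plvap and 53.4% for Ly6c1. The rest lay in cells that did not meet the rule.

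Lists of endothelial genes were counted by the median ratio over libraries, with 1265 of 10449 genes (12.1%) at 1 or more and 4465 (42.7%) at -1 or less as the background. Of 36 measured genes of the identity list, 35 were at 1 or more, 28 of them in every library, with a median of 4.89. Cdh5, the VE-cadherin gene, had 6, 5, 7, 1 and 3 UMIs from inner medulla to whole kidney 2 and a ratio of 5.18. Flt1, the decoy VEGF receptor gene, stood at 4.93, Tek, the angiopoietin receptor gene, at 4.89, Cldn5, a tight junction gene, at 4.43 and the ETS factor gene Fli1 at 4.49. The exception was Igfbp7 at -1.28, a gene that all other cells of these libraries also held, at 2883 CPM or more.

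The receptor lists followed the same direction. Of 7 measured genes for VEGF and angiopoietin receptors and their partners, 5 were at 1 or more and 0 at -1 or less (median 4.89). Nrp1, a VEGF co-receptor gene, had 9 UMIs in inner medulla, 20 in outer medulla, 19 in cortex, 11 in whole kidney 1 and 35 in whole kidney 2. Of 12 measured BMP and TGF-beta genes, 9 were at 1 or more and 1 at -1 or less. Eng and Id3, a BMP target at 4.07, were among the higher ones. Notch genes were nearly out of reach at this depth: 4 of 5 measured were at 1 or more, but Notch4 had 4 UMIs in all and Dll4 had 3. Of 12 measured vasoactive genes 7 were at 1 or more and 2 at -1 or less. Ednrb, the endothelin B receptor gene, stood at 4.20 with 11, 2, 4, 1 and 5 UMIs by library. Markers often used for endothelium were missing here: Vwf and Ace had 0 UMIs and Nos3, the endothelial nitric oxide synthase gene, had 1.

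Genes of contact with blood cells were well represented. Of 19 measured junction and surface genes, 16 were at 1 or more and 1 at -1 or less (median 3.81), including Icam2 (5.35), Esam (3.81) and Podxl (4.30), a sialomucin shared with podocytes. Of 11 measured genes for leukocyte adhesion and class I antigen presentation, 9 were at 1 or more, and of 15 measured interferon-induced genes 14 were. B2m, the light chain of class I molecules, stood at 3.12, and the heavy chain genes H2-D1 and H2-K1 at 3.69 and 2.80. Reads of H2-D1 and H2-K1, of Ifitm2 and Ifitm3, of Ly6a and Ly6e and of Ly6c1 and Ly6c2 could be split by counting between related genes. Single values of these genes are therefore uncertain.

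Matrix genes were mixed, with 12 of 20 measured at 1 or more and 4 at -1 or less. Timp3, a matrix-bound protease inhibitor gene, had 55, 43, 100, 56 and 99 UMIs from inner medulla to whole kidney 2, at a ratio of 1.68. The lists of lipid uptake and of hypoxia response and glycolysis had medians below 0, at -0.48 and -0.63. Gpihbp1, the capillary anchor of lipoprotein lipase, stood at 4.57, whereas Lpl, the lipase itself, and Cd36, a fatty acid receptor gene, stood at -1.82 and -0.59. Of 11 measured immediate early genes, 6 were at 1 or more and 2 at -1 or less, with a median of 1.24 that turned to -0.26 with TMM scaling.

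Endothelial cells of the 3 regions were then set against each other. A gene was counted as higher in a region when it had at least 5 UMIs and 200 CPM there, a log2 ratio of at least 1, and an endothelial level at least 2-fold that of the other cells of that library, and as lower when the other region met this. By this rule 152 of 661 genes (23%) were higher in inner medulla than in cortex and 202 of 699 (28.9%) were lower. Between the whole kidney libraries, which have the same label, 158 of 697 (22.7%) were higher and 68 of 308 (22.1%) lower in whole kidney 2 than in whole kidney 1. Counts of genes by region were therefore near the spread between libraries. Genes are described with their UMIs, and some of them rest on few UMIs or few cells. The median log2 ratio over all genes with at least 10 UMIs was -0.15 for inner medulla over cortex.

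Cryab, the small heat shock protein alpha-B-crystallin, was the extreme. It had 376 UMIs in 26 of 33 endothelial cells of inner medulla, against 1 UMI in cortex, 0 in outer medulla and 0 in each whole kidney library. That is 393-fold over cortex (70.2 to 15580) and at least 84.5-fold over outer medulla, with 3 counts as the limit for a count of 0. It was not particular to endothelium: other cells of inner medulla held 7628 CPM and barcodes under 100 genes 8585 CPM, against 26950 CPM in the endothelial cells, and it was seen in 20 of 65 inner medulla cells rich in proximal markers, at median depths of 328 UMIs for the endothelial and 461 UMIs for the proximal-rich cells. The part of free RNA in its endothelial level was not tested. Hspb1, a related small heat shock protein gene, had 26 UMIs in inner medulla, 3 in outer medulla and 6 in cortex, which is 4.53-fold over cortex (1.83 to 13.5). The list of osmolyte transport and chaperone genes that holds both held 520 UMIs in inner medulla, against 105 UMIs in cortex, for a 5.18-fold level (4.19 to 6.45), most of it Cryab.

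Several genes were seen in endothelial cells of inner medulla and not in those of outer medulla or cortex. Nrgn, a calmodulin-binding protein gene best known from neurons, had 18 UMIs in 11 cells there and 0 in the other 4 libraries. Angpt2, the ligand that loosens vessels through the Tek receptor, had 17 UMIs in 10 cells and 0 elsewhere. Slc14a1, the urea transporter UT-B of descending vasa recta, had 11 UMIs in 5 cells of inner medulla and 2 in 1 cell of whole kidney 1. Over cortex these are at least 6.28-fold, 5.93-fold and 3.84-fold. Other cells of inner medulla held 11.8, 31.6 and 23.7 CPM of the 3 genes, against 1290, 1218 and 788 CPM in the endothelial cells.

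The same 3 genes were counted in the 211 smaller barcodes that met the rest of the rule. In these, from inner medulla to whole kidney 2, Nrgn had 19, 0, 0, 1 and 0 UMIs, Angpt2 had 10, 0, 0, 0 and 0 and Slc14a1 had 8, 1, 0, 0 and 0. They come from the same libraries and are no new animals. Of the 152 genes higher in inner medulla than in cortex, 58 could be counted there and 32 were higher again, where 23.4% of all 721 genes counted were called. Of the 202 lower genes 34 could be counted and 18 were lower again, against 29.9% of 231 genes. For outer medulla over cortex, 2 of 7 higher genes and 12 of 17 lower genes recurred, against 24.3% and 24.2% of all genes counted. A gene could be counted when it had at least 5 UMIs and 200 CPM in the higher region of the smaller barcodes. The 2-fold limit used the same other cells both times, so genes past it once were favoured to pass again. All genes counted include genes that fail this limit. The recurrence was thus partly set in advance and is a description.

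Igfbp7, a secreted growth factor-binding protein gene, had 87 UMIs in inner medulla, 11 in outer medulla and 10 in cortex, or 9.10-fold over cortex (4.72 to 19.6). Its level of 6236 CPM in inner medulla stood close to the 5403 CPM of the other cells and the 4973 CPM of barcodes under 100 genes, and the part of free RNA in it was not tested.

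**Figure D4:**
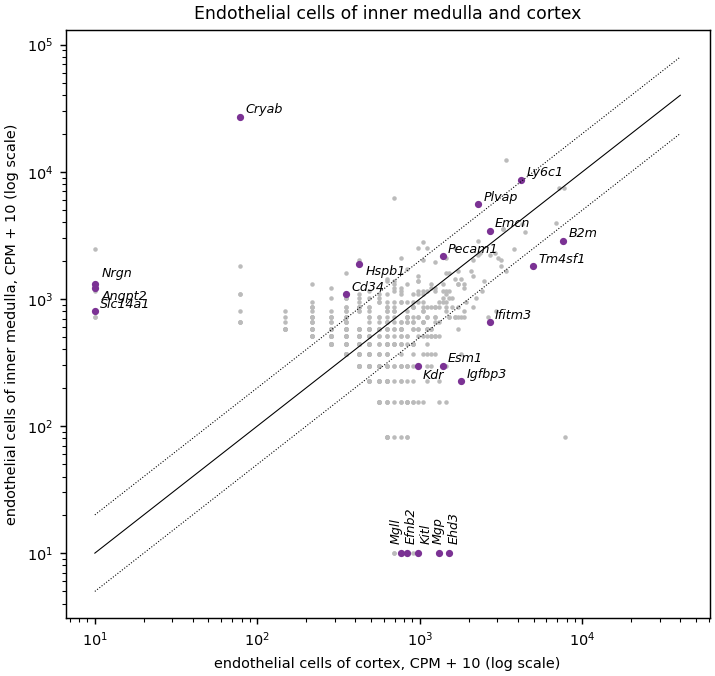
Level of each gene with at least 10 UMIs over both sums in endothelial cells of inner medulla (vertical axis) against cortex (horizontal axis), as CPM plus 10 on log axes; purple points are named genes, the solid line marks equal levels and the dotted lines 2-fold differences. Cryab, Nrgn, Angpt2 and Slc14a1 lie far above the diagonal, and Ehd3, Mgp, Kitl and Efnb2, at 0 UMIs in inner medulla, lie along the bottom.

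Some genes of glomerular and arterial endothelium had 0 UMIs in inner medulla, but not all of these differences were seen in the smaller barcodes. Ehd3 had 0 UMIs in inner medulla, 15 in outer medulla, 22 in cortex, 6 in whole kidney 1 and 10 in whole kidney 2, at least 7.01-fold lower than in cortex. In the smaller barcodes it had 3, 8, 1, 1 and 5 UMIs, so the difference between inner medulla and cortex was not seen there. Mgp, a calcification inhibitor gene, had 0, 23, 19, 2 and 9 UMIs, with the 19 UMIs of cortex in 2 cells. Kitl, the ligand of the receptor Kit, had 0, 6, 14, 1 and 5 UMIs and Efnb2, the arterial ephrin ligand gene, 0, 2, 12, 5 and 7. In the smaller barcodes Kitl had 2, 2 and 2 UMIs in inner medulla, outer medulla and cortex, Efnb2 had 1, 2 and 1 and Mgp 0, 5 and 0, too few to show the difference from cortex.

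Antigen presentation genes had a lower summed level in inner medulla than in cortex. B2m had 40 UMIs in inner medulla (2867 CPM), 69 in outer medulla (7333 CPM) and 111 in cortex (7604 CPM), so that cortex was 2.65-fold higher than inner medulla (1.83 to 3.91). Whole kidney 2 over whole kidney 1 was 1.25-fold (0.807 to 1.98). The summed leukocyte list was 0.471-fold in inner medulla over cortex (0.366 to 0.603), at 95 against 211 UMIs, and 1.06-fold in whole kidney 2 over whole kidney 1. In the smaller barcodes the list stood at 10887 CPM in inner medulla, 18721 CPM in outer medulla and 22668 CPM in cortex. The interferon list was 0.679-fold in inner medulla over cortex (0.519 to 0.883) and 0.790-fold over outer medulla (0.582 to 1.07). In the smaller barcodes it stood at 11203 CPM in inner medulla, 9291 CPM in outer medulla and 15604 CPM in cortex. Its members were not uniform: Ifitm3, which restricts virus entry, had 9 UMIs in inner medulla, against 39 UMIs in cortex, whereas its near copy Ifitm2 had 19 against 14, and reads of the pair may be split between them. The identity list was alike in sum, at 1.05-fold (0.915 to 1.20).

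Of the 25 endothelial cells of outer medulla, 6 held more than 2 UMIs of markers of another cell type, the most of any library. Of 416 genes, 74 (17.8%) were higher in outer medulla than in cortex, and of 699 genes 141 (20.2%) were lower. Without the cells that held markers of another type the first number was 44. The leading gene Lyz2, a macrophage gene, had 30 UMIs in 2 cells, and the mural cell genes Rgs5 and Acta2 had 17 and 8 UMIs in 1 cell each. The macrophage list had 35 UMIs in outer medulla and 0, 1, 0 and 0 in inner medulla, cortex, whole kidney 1 and whole kidney 2, and the mural list 30 UMIs there and 0, 0, 0 and 1. Klf2 was 2.01-fold higher in outer medulla than in cortex (1.02 to 4.03) and Klf4 5.17-fold (1.33 to 29.2). In the smaller barcodes Klf2 stood at 1664 CPM in outer medulla and 821 CPM in cortex, but Klf4 at 416 and 657 CPM, from 3 and 4 UMIs. Esm1, a secreted proteoglycan gene induced by VEGF, had 0 UMIs in outer medulla and 20 in cortex, at least 4.30-fold lower. Inner medulla over outer medulla gave 139 of 661 genes higher (21%) and 104 of 416 lower (25%), the lower ones led by the same Lyz2.

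The endothelial cells were last sorted by vascular bed, from short lists of bed markers outside the rule. A cell was given to a bed when it held at least 2 UMIs of that list and more than of any other. This reached 63 of 136 cells, 29 glomerular, 21 arterial, 9 fenestrated, 3 descending vasa recta, 1 venous and 0 lymphatic. Of the other 73 cells, 20 held 0 UMIs of every list, 49 held 1 at most and 4 were tied. The classes are ranges and not types, since 21 of the 63 had just 2 UMIs, and their names are those of the lists. Of 7 measured genes of the glomerular list, 4 had a median log2 ratio over other cells of 1 or more and 3 of -1 or less. In inner medulla this list stood at 1218 CPM in endothelial cells, 983 CPM in barcodes under 100 genes and 553 CPM in other cells. The part of free RNA in it was not tested.

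By region the glomerular class took 3 of 33 cells in inner medulla, 6 of 25 in outer medulla, 9 of 34 in cortex, 5 of 18 in whole kidney 1 and 6 of 26 in whole kidney 2. The arterial class took 0, 4, 4, 3 and 10 cells in the same order and the fenestrated class 1, 0, 4, 3 and 1. The 3 descending vasa recta cells were all from inner medulla. Intervals were wide, for example 1.92% to 24.3% for the glomerular share in inner medulla and 12.9% to 44.4% in cortex. The 93 cells with at least 300 UMIs were also thinned to 300 UMIs, and the others were dropped. The glomerular class then took 1 of 23 cells in inner medulla (4.35%), 2 of 14 in outer medulla (14.3%) and 4 of 25 in cortex (16%). Over all cells, unthinned, these shares were 9.09%, 24% and 26.5%. The 2 sets differ both in depth and in the cells kept, and the part of each in the drop was not tested. The arterial share in thinned cells was 7.14% in outer medulla (1 of 14) and 4% in cortex (1 of 25), against 16% and 11.8% over all cells, unthinned. Summed over all endothelial cells, arterial genes numbered 3 UMIs in inner medulla, against 34 UMIs in cortex, or 0.0923-fold (0.0181 to 0.294). Fenestrated genes, a list without Plvap, had 14 and 38 UMIs, or 0.385-fold (0.193 to 0.728), whereas Plvap itself stood highest in inner medulla. Descending vasa recta genes had 31 and 1 UMIs, or 32.4-fold (5.41 to 1322). The vasa recta list differed as widely between whole kidney 2 and whole kidney 1, at 1 and 12 UMIs. One of its genes is Aqp1, the water channel also made by tubule cells, which had 17 UMIs in inner medulla, where barcodes under 100 genes held 1738 CPM. In the smaller barcodes the glomerular list ran the other way between inner medulla and cortex, at 31 and 6 UMIs (1962 and 986 CPM), and the arterial list had 8 and 5 UMIs (506 and 821 CPM). Fenestrated genes had 27 and 35 UMIs there (1709 and 5749 CPM), and vasa recta genes had 36 and 2 UMIs.

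**Figure D5:**
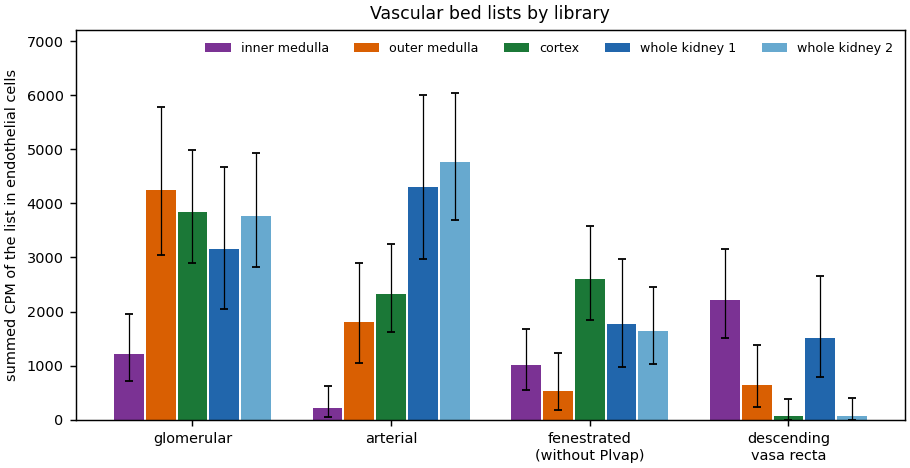
Level of the marker list of each vascular bed, summed over the endothelial cells of each library, as CPM with exact 95% Poisson intervals. Among these cells inner medulla is lowest for glomerular and arterial genes, at 1218 and 215 CPM, and highest for descending vasa recta genes, at 2222 CPM; in smaller barcodes glomerular genes stood at 1962 CPM in inner medulla and 986 CPM in cortex.

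Genes outside the bed lists were then compared between the classes. They were named by size after their values were seen, and cells of a class are not replicates. Libraries were pooled, and of the 33 inner medulla cells 3 were glomerular and 0 arterial. The folds between classes therefore also carry differences between libraries, which were not separated. Kdr, Emcn, Plvap, Fabp4 and Tm4sf1 are genes of the rule, so their values in a class are partly set by how the cells were chosen. The largest fold in the glomerular class was that of S100g, a distal tubule marker, at 28 UMIs in the class and 17 in the other cells (6.86-fold), and its part in the other values was not tested. The 29 glomerular cells (11606 UMIs) held 17 UMIs of Kdr, as many as the 17 of all other 107 endothelial cells (48343 UMIs), a 4.17-fold level. Nrp1 was 3.67-fold (44 and 50 UMIs), Igfbp5, a growth factor-binding protein gene, 3.47-fold (40 and 48 UMIs) and Emcn 2.62-fold, seen in 27 of 29 cells. Plvap was 0.397-fold (12 and 126 UMIs) and Fabp4 0.172-fold (4 and 97 UMIs). Ehd3 and Kdr were found together in 12 cells, Ehd3 alone in 15 and Kdr alone in 11.

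The 21 arterial cells (14269 UMIs), of which 0 came from inner medulla, held few UMIs of 3 genes of the rule. Emcn had 4 UMIs in them and 136 in the other 115 endothelial cells (45680 UMIs), a 0.0942-fold level, Plvap had 2 and 136 (0.0471-fold) and Kdr 0 and 34. Tm4sf1 was seen in 21 of 21 arterial cells and was 2.34-fold; a cell with few UMIs of the 3 genes can have met the rule only through the others, of which Tm4sf1 is one. Jag1, the Notch ligand of arteries, had 20 UMIs against 2 (32.0-fold), and Igf2, a growth factor gene, 13 against 0. The protease gene Htra1 and the elastic fibre gene Fbln2 had 16 against 2 UMIs each, and Cavin1, a caveolar coat gene, 28 against 17. Jag1, Igf2, Htra1 and Fbln2 were each seen in just 6 of the 21 arterial cells, and Cavin1 in 12. The arterial cells were deeper, with a median of 463 UMIs against 328. Fbln5, from the arterial list, and Ehd3 shared 0 cells, with 20 and 27 cells of their own. The 9 fenestrated cells (3705 UMIs) held Kdr at 3.94-fold (7 and 27 UMIs), Plpp3, a lipid phosphate phosphatase gene, at 3.40-fold and Plvap at 1.85-fold over the other 127.

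Pairs of genes within the inner medulla pattern split as well. Of 136 cells, Plvap and Nrgn were found together in 9, Nrgn without Plvap in 2 and Plvap without Nrgn in 43. Plvap and Angpt2 were together in 6, and Angpt2 without Plvap in 4. Plvap and Slc14a1 shared 0 cells, with 6 cells holding Slc14a1 and 52 holding Plvap. Slc14a1 and Aqp1 shared 4. At a median depth of 354.5 UMIs a gene that is made can be missed, so an empty pair is not evidence that 2 genes exclude each other.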

How the data were processed

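UMI counts per gene and barcode were deposited by the authors as 1 table per library, not normalized. Cells were perfused, digested in the cold, fixed in methanol and captured by Drop-seq, per the labels' protocols. Seurat 2.3.1 and the build mm9 are named in the submitters' processing notes with no role given, and an aligner or annotation is not given in the sources used. The tables held 4035 to 15051 barcodes and 869732 to 4169677 UMIs, with at least 50 genes per barcode and no mitochondrial genes. Barcodes with 200 or more genes were kept as cells, at a median of 440 to 517 UMIs.

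Endothelial UMIs were summed per library and given as CPM, and log2 ratios were taken of CPM plus 10. With 1 library per region no test was made. The members, gene lists and rules were chosen with earlier results of these data known. Genes were named by size: up to 30 with the largest median ratio over other cells among those at 1 or more in every library, up to 10 per direction between regions, the 10 with the largest share of their UMIs in endothelial cells, the 8 genes of the rule and the list members with most UMIs. Bed genes and pairs were chosen after their values were seen. Cells with over 2 UMIs of any of 9 lists of another cell type were left out as an alternative. Proximal tubule, thin limb and erythroid lists were not among the 9. Bed classes were also counted in the cells with at least 300 UMIs, thinned to 300 UMIs, and Aqp1 was left out of the class call. Cells rich in proximal markers held at least 20 UMIs and 10% of their UMIs in that list. TMM factors came from edgeR 4.0.16. Python 3.11.15, numpy 2.4.6, scipy 1.17.1, pandas 2.3.3 and matplotlib 3.10.9 were used. The computation was tested on simulated data.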

Additional observations from a re-analysis of the deposited data

Results flagged for a closer look

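Mgll, the gene for monoacylglycerol lipase, had opposite ratios of endothelial over other cells by region: a log2 ratio of -4.90 in inner medulla, 3.77 in outer medulla and 4.07 in cortex. It had 0 UMIs in endothelial cells of inner medulla, where the other cells held 288 CPM, and 11 UMIs (754 CPM) in those of cortex, where the other cells held 35.4 CPM. Ndrg1, a gene induced by low oxygen, had a log2 ratio of 1.93 in inner medulla, from 7 UMIs in 2 cells, and -3.33 in cortex, from 1 UMI. With 1 library per region these differences were not tested.

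Barcodes with at least 100 but fewer than 200 genes, which the comparisons do not use, also held endothelial profiles. The rest of the rule was met by 8.34% of them in inner medulla (6.78 to 10.1), 1.44% in outer medulla (1.05 to 1.94), 1.23% in cortex (0.862 to 1.70), 0.485% in whole kidney 1 (0.266 to 0.813) and 0.727% in whole kidney 2 (0.475 to 1.06). The difference was not tested. The 8 genes made up 0.376% of UMIs in inner medulla barcodes under 100 genes and 0.0287% to 0.0712% in the other libraries.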

How the results depend on the processing

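Of 309 genes, 72 were higher in endothelial than in other cells in every library. The number was 45 with TMM factors, 204 with no filter on UMIs and 55 to 74 with each library left out in turn. With no filter on UMIs, inner medulla over cortex gave 419 genes higher and 485 lower, outer medulla over cortex 601 and 378, and inner medulla over outer medulla 376 and 652. Without cells that held markers of another type, outer medulla over cortex gave 44 genes higher and inner medulla over outer medulla 67 lower. In barcodes of at least 100 but fewer than 200 genes, an alternative chosen after seeing the data, 69 genes were lower in inner medulla and 56 lower in outer medulla than in cortex. The endothelial share with at least 300 genes per cell was 2.33% in inner medulla, 0.645% in outer medulla and 0.744% in cortex; with at least 100, also chosen after seeing the data, it was 6.25% in inner medulla. Cells with at least 300 UMIs were thinned to 300 UMIs. Among these the fenestrated share in whole kidney 2 was 0 of 18 cells and the glomerular share in whole kidney 1 was 7.69% (1 of 13). The immediate early list had a median of -0.26 with TMM factors. The cause of these shifts was not tested, apart from the larger number of genes that no filter lets in. No paired analysis was possible because each region has 1 library and no result comes from a test. Depth limits all values: a gene with 0 UMIs in 1 library may still be made there.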
